A study of Oryctolagus cuniculus with 4 samples.

Results

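JCHAIN, MZB1 and 2 features that carry only an identifier, ENSOCUG00000027394 and ENSOCUG00000025374, were followed across 4 sections of rabbit supraspinatus muscle. They are 4 of the 21139 features in the count tables, taken by name or identifier chosen by their UMI counts in these same sections, where their levels at 16 weeks, concentration in few spots and joint detection had stood out. Their levels below are therefore descriptions and carry no test. JCHAIN is ENSOCUG00000027219 and MZB1 is ENSOCUG00000006942 in the tables. The tables give no symbol for the other 2 features, and no annotation used here named them. They were therefore called by their identifiers, and nothing was assumed about what they encode.

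Plasma cells are the antibody-secreting end stage of the B cell lineage, with an enlarged endoplasmic reticulum devoted to protein export. JCHAIN encodes the joining chain that links IgM and IgA into polymers, and MZB1 encodes a chaperone of the endoplasmic reticulum found in B and plasma cells. Both genes are also known from plasmacytoid dendritic cells. Plasma cells are not part of the muscle fiber itself and lie, where present, in the connective tissue between fibers.

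Each section came from a female New Zealand White rabbit, skeletally mature at 6 months, and was cut from the posterior distal part of the muscle belly. The conditions were healthy muscle without storage (fresh healthy), healthy muscle kept frozen for 6 years (stored healthy), and 2 muscles kept equally long that were taken 2 weeks and 16 weeks after tenotomy, the surgical release of the tendon. All were snap frozen. The labels of the stored healthy and 16-week sections, 14R and 14L, share the number 14, which was read as the right and left sides of 1 animal although no label says so, and the healthy side would then be the contralateral muscle of an operated rabbit. The other sections carry other numbers. There was 1 section per condition, and the spots of a section are not replicates, so condition, animal and section cannot be told apart and no p-value was computed.

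RNA was captured with the Visium assay on printed spots whose barcodes mark the place, and each captured molecule was counted once through its unique molecular identifier (UMI). A spot covers several cells, so fewer cells of a type and less RNA per cell cannot be told apart. The sections held 1950, 2440, 854 and 1726 spots in the order fresh healthy, stored healthy, 2 weeks and 16 weeks, with 4079313 to 12536450 UMIs in total and a median of 2090 to 5195 UMIs per spot. The 16-week section was the shallowest per spot, and mitochondrial genes took 33.8% to 49.3% of the UMIs. Intervals are exact 95% intervals, Poisson for counts, Clopper-Pearson for shares and conditional for ratios, and they cover counting error only.

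JCHAIN was counted 16 times in fresh healthy muscle, 5 times in stored healthy muscle, 28 times at 2 weeks and 129 times at 16 weeks. Relative to all UMIs of the section, its level was 0.0228 per 10000 UMIs (0.0130 to 0.0370) in fresh healthy muscle, 0.00399 (0.00130 to 0.00931) in stored healthy muscle, 0.0686 (0.0456 to 0.0992) at 2 weeks and 0.272 (0.227 to 0.323) at 16 weeks. The order was stored healthy, fresh healthy, 2 weeks and 16 weeks, and no 2 neighboring intervals overlapped. MZB1 was the rarest of the 4 features, with 0 UMIs in fresh healthy, 3 in stored healthy, 5 at 2 weeks and 28 at 16 weeks. Its level was 0.00239 per 10000 (0.000493 to 0.00699) in stored healthy, 0.0123 (0.00398 to 0.0286) at 2 weeks and 0.0590 (0.0392 to 0.0853) at 16 weeks. The count of 0 in the fresh section allows a level of up to 0.00427 per 10000, taking 3 counts as the limit, with an exact upper limit of 0.00526. For MZB1, the interval at 16 weeks thus lay above all others, while the stored healthy and 2-week intervals overlapped.

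The 2 unnamed features were far more abundant. ENSOCUG00000027394 had 251 UMIs in fresh healthy, 19 in stored healthy, 806 at 2 weeks and 10589 at 16 weeks, or 0.358 (0.315 to 0.405), 0.0152 (0.00912 to 0.0237), 1.98 (1.84 to 2.12) and 22.3 (21.9 to 22.8) per 10000 UMIs. At 16 weeks, only 64 of the 9827 features detected had more UMIs, compared with 4990 of 9897 in the stored healthy section. ENSOCUG00000025374 had 79, 2, 202 and 1235 UMIs in the same order, or 0.113 (0.0891 to 0.140), 0.00160 (0.000193 to 0.00576), 0.495 (0.429 to 0.568) and 2.60 (2.46 to 2.75) per 10000. Both followed the order of JCHAIN, with the stored healthy section lowest and the 16-week section highest.

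**Figure D1:**
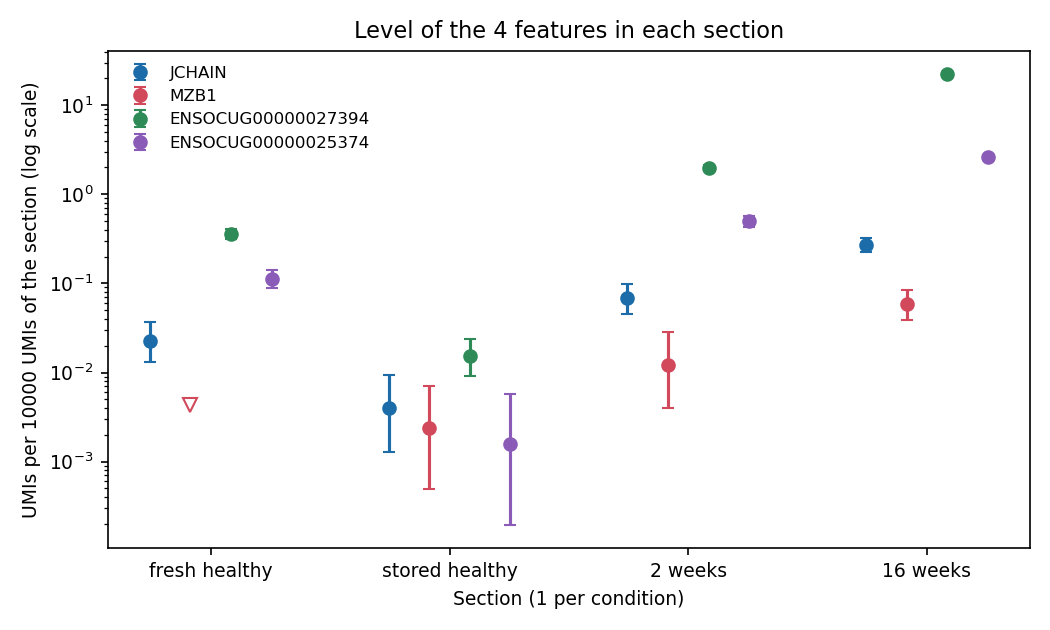
Level of each of the 4 features in the 4 sections, as UMIs per 10000 UMIs of the section on a log axis. Points are single sections, bars are exact Poisson 95% intervals and the open triangle is the limit that 3 counts allow where MZB1 had 0 UMIs. All 4 features sit highest at 16 weeks, where ENSOCUG00000027394 reaches 22.3.

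Between the sections numbered 14, the 16-week level over the stored healthy level was 68.2-fold (28.5 to 214) for JCHAIN, 24.7-fold (7.62 to 127) for MZB1, 1473-fold (943 to 2447) for ENSOCUG00000027394 and 1632-fold (451 to 13491) for ENSOCUG00000025374. All 4 were above a 2-fold difference, but so were 46.9% of the 6025 features with at least 20 UMIs in both sections together, whose median log2 ratio was 0.93. Only 1 feature had a higher log2 ratio than ENSOCUG00000027394, and 22 had a higher one than JCHAIN. Since these features were picked for such values, their rank describes them and is no test. The stored healthy counts were 5 UMIs for JCHAIN, 3 for MZB1, 19 for ENSOCUG00000027394 and 2 for ENSOCUG00000025374. The size of ratios over that section is therefore only loosely set.

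At 2 weeks, JCHAIN stood 17.2-fold (6.56 to 57.1), ENSOCUG00000027394 130-fold (82.9 to 218) and ENSOCUG00000025374 310-fold (84.8 to 2580) above the stored healthy section, where 27.6% of features were at least 2-fold higher. MZB1 had too few UMIs for that comparison, with a ratio of 5.12 (0.997 to 33.0). From 2 to 16 weeks, the levels were 3.96-fold (2.62 to 6.19) higher for JCHAIN, 4.82-fold (1.84 to 16.0) for MZB1, 11.3-fold (10.5 to 12.2) for ENSOCUG00000027394 and 5.26-fold (4.53 to 6.13) for ENSOCUG00000025374, against 18.1% of features at least 2-fold higher. The interval of ENSOCUG00000027394 lay above those of JCHAIN and ENSOCUG00000025374, and that of MZB1 was wide. These intervals treat UMIs as independent and leave out the concentration of the features in few spots, so they do not rank the features. The ratios rest in part on single spots, and leaving these out moved the 2-to-16-week ratios of both unnamed features beyond their intervals. Without the spot with most UMIs of the feature in each section, the log2 ratio from 2 to 16 weeks was 4.15 for ENSOCUG00000027394 (3.50 with it) and 3.16 for ENSOCUG00000025374 (2.39 with it), and that of ENSOCUG00000027394 at 2 weeks over stored healthy was 6.38 (6.99 with it).

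The 2 healthy sections were not alike. In the stored section, JCHAIN was at 0.175 (0.0501 to 0.4997), ENSOCUG00000027394 at 0.0424 (0.0251 to 0.0676) and ENSOCUG00000025374 at 0.0142 (0.00169 to 0.0529) of the fresh level, where 11% of features were at least 2-fold lower. Against the fresh section, the 16-week ratios were therefore smaller, at 11.9-fold (7.07 to 21.5) for JCHAIN, 62.4-fold (55.1 to 71.0) for ENSOCUG00000027394 and 23.1-fold (18.4 to 29.4) for ENSOCUG00000025374, and MZB1, with 28 UMIs against 0, was at least 13.8-fold higher when the fresh count is taken as 3, with an exact lower limit of 10.5. Of all features, 43.1% were at least 2-fold higher in that comparison. Against the same fresh section, the 2-week ratios were 3.01 (1.57 to 5.96) for JCHAIN, 5.52 (4.79 to 6.39) for ENSOCUG00000027394 and 4.40 (3.38 to 5.78) for ENSOCUG00000025374, and 23.3% of features were at least 2-fold higher. MZB1 had 5 UMIs at 2 weeks against 0, too few for that comparison. The direction after tenotomy was the same against either healthy section for JCHAIN and both unnamed features, and the size depended on which healthy section was taken.

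In shares of spots, JCHAIN was found in 0.769%, 0.205%, 1.76% and 4.23% of the spots of the fresh healthy, stored healthy, 2-week and 16-week sections. The fresh healthy interval (0.431% to 1.27%) overlapped those of stored healthy (0.0666% to 0.478%) and 2 weeks (0.986% to 2.88%). Only the 16-week interval (3.33% to 5.29%) lay apart from all others. MZB1 was found in 0 of 1950 fresh spots, and in 0.123%, 0.468% and 1.22% of the spots of the other sections. The 0 allows a share of up to 0.154%, taking 3 counts as the limit, with an exact upper limit of 0.189%. ENSOCUG00000027394 was found in 4.15%, 0.697%, 15.0% and 43.2%, and ENSOCUG00000025374 in 1.64%, 0.0820%, 4.22% and 12.1%. With each spot thinned to 1000 UMIs, which left out 266, 93, 53 and 352 shallower spots, the shares with ENSOCUG00000027394 were 2.05%, 0.147%, 5.45% and 29.7%, and those with JCHAIN were 0.291%, 0.0334%, 0.596% and 2.82%. The order of the sections was the same at equal depth, so the 16-week section had the largest shares although its spots were the shallowest.

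Most spots held none of the 4 features. None was found in 1841 fresh healthy, 2414 stored healthy, 708 2-week and 939 16-week spots. At least 2 of the 4 were found together in 16 fresh healthy spots (0.821%), 1 stored healthy spot (0.0410%), 32 2-week spots (3.75%) and 194 16-week spots (11.2%). All 4 met in 1 spot at 2 weeks and in 13 spots at 16 weeks, and in none of the healthy sections.

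ENSOCUG00000027394 was concentrated in a few spots in each section but the stored healthy one. Its highest spot held 121 UMIs in fresh healthy muscle, 2 in stored healthy muscle, 332 at 2 weeks and 794 at 16 weeks. That single spot was 48.2% of all its UMIs in the fresh section, 41.2% at 2 weeks and 7.50% at 16 weeks. To reach 50% of its UMIs took 2 spots in the fresh section, 2 at 2 weeks and 18 at 16 weeks. At 16 weeks, 24 of 1726 spots held at least 100 UMIs each and together 6172 UMIs, or 58.3% of the total, while 981 spots held none. The fresh and 2-week totals were therefore set largely by 1 or 2 spots, and the 16-week total by a larger set of high spots.

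The variance of its counts over spots was 60.3 times the mean in the fresh section, 1.203 times in the stored healthy section, 189 times at 2 weeks and 212 times at 16 weeks. Across all features with at least 50 UMIs, the median of this ratio was 1.13 to 1.25, and at 16 weeks 1 of 3333 features had a higher one. ENSOCUG00000027394 was picked with its concentration known, so this rank is no test. If its 10589 UMIs had been spread by depth alone, 1589 spots would have been expected to hold it, and 745 did.

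**Figure D2:**
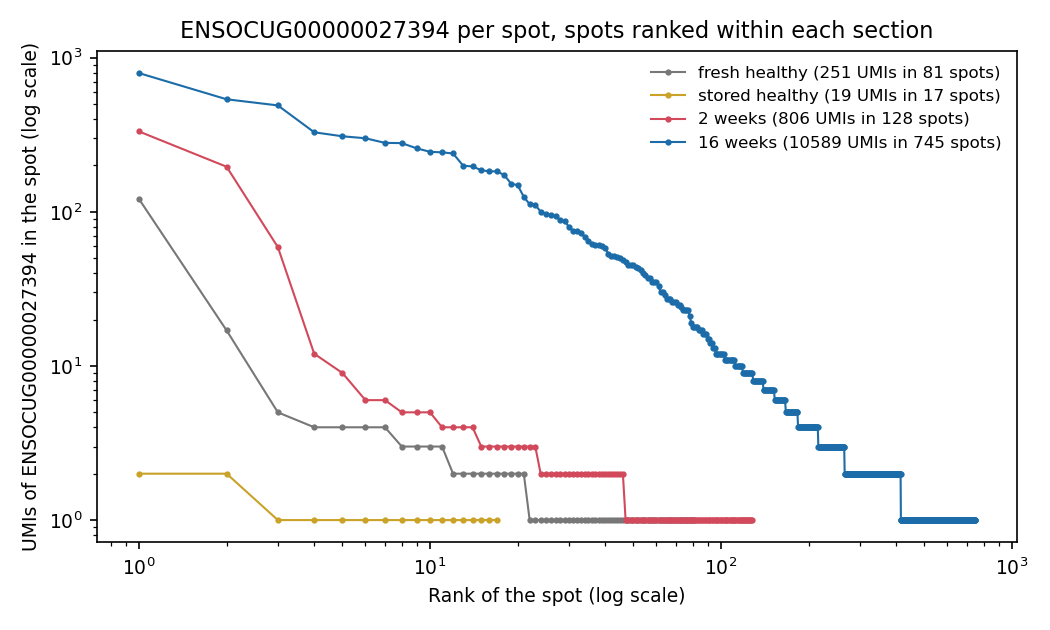
UMIs of ENSOCUG00000027394 per spot against the rank of the spot within its section, both on log axes, with 1 line per section and spots at 0 left out. The fresh healthy and 2-week lines start at 121 and 332 UMIs and have 1 and 2 spots at 100 UMIs or more, while the 16-week line stays at 100 UMIs or more for 24 spots.

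ENSOCUG00000025374 was also concentrated in few spots, except in the stored healthy section, where it had only 2 UMIs. Compared with ENSOCUG00000027394, its variance over the mean was lower, at 22.0 in the fresh section, 56.5 at 2 weeks and 34.4 at 16 weeks. Its highest spot held 41 UMIs in the fresh section, 1 in the stored healthy section, 94 at 2 weeks and 105 at 16 weeks, and 50% of its UMIs lay in 1, 1, 2 and 14 spots. JCHAIN did not exceed 2 UMIs in any fresh spot or 1 in any stored healthy spot, and reached 7 in a spot at 2 weeks and 8 at 16 weeks. MZB1 reached 1, 2 and 3 UMIs per spot in the stored healthy, 2-week and 16-week sections. Counts of MZB1 were therefore mostly single molecules, which limits what its position can show.

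Spots with most ENSOCUG00000027394 also held the other features. The leading 16-week spot held 8 UMIs of JCHAIN, 2 of MZB1, 794 of ENSOCUG00000027394 and 105 of ENSOCUG00000025374, together 35.0% of its 2594 UMIs. The next held 6, 1, 537 and 93, and the one after that 7, 2, 490 and 84. ENSOCUG00000027394 was the feature with most UMIs in 31 spots of the 16-week section, mitochondrial genes included, and took over 10% of the UMIs in 9 spots. In the other sections it led no spot when these genes were included. At 2 weeks, the 2 highest spots held 7 JCHAIN, 0 MZB1, 332 ENSOCUG00000027394 and 94 ENSOCUG00000025374 UMIs, and 7, 2, 196 and 47. In the fresh section the highest spot held 2, 0, 121 and 41.

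At 16 weeks, 62 of the 73 spots with JCHAIN (84.9%, interval 74.6% to 92.2%) also held ENSOCUG00000027394, and 50 (68.5%) held ENSOCUG00000025374. Of the 21 spots with MZB1, 18 (85.7%) held ENSOCUG00000027394, 18 held ENSOCUG00000025374 and 13 (61.9%) held JCHAIN. ENSOCUG00000027394 was also present in 180 of the 209 spots with ENSOCUG00000025374 (86.1%). The product of the shares of spots gives 31.5 spots for JCHAIN with ENSOCUG00000027394, 8.84 for JCHAIN with ENSOCUG00000025374, 0.888 for JCHAIN with MZB1, 2.54 for MZB1 with ENSOCUG00000025374 and 90.2 for the unnamed pair. Each observed number was above its product.

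A reference that spread the UMIs of each feature over spots by depth alone gave another picture, with 119 spots expected for JCHAIN with ENSOCUG00000027394 and 750 for the unnamed pair. It expects more spots because it assumes no concentration, so ENSOCUG00000027394 alone would reach 1589 spots. For spots with at least 2 UMIs of each, this reference gave 6.87 for JCHAIN with ENSOCUG00000027394 and 2.89 for JCHAIN with ENSOCUG00000025374, and 23 and 22 were observed. For JCHAIN with MZB1, 13 spots were observed and 3.06 expected by depth.

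In the other sections the overlap rested on few spots. At 2 weeks, 9 of the 15 JCHAIN spots (60.0%, interval 32.3% to 83.7%) held ENSOCUG00000027394, with 2.25 from the product of shares, and 25 of the 36 ENSOCUG00000025374 spots did, with 5.40 from the product. In the fresh section, 3 of 15 JCHAIN spots (20%, interval 4.33% to 48.1%) held ENSOCUG00000027394, with 0.623 from the product, and 12 of the 16 JCHAIN UMIs lay in spots without it. The unnamed pair met in 16 of 32 fresh spots with ENSOCUG00000025374, with 1.33 from the product. None of the 5 JCHAIN spots and none of the 3 MZB1 spots of the stored healthy section held another of the 4 features. ENSOCUG00000025374 was also found in 3 of the 15 fresh JCHAIN spots, with 0.246 from the product. Most JCHAIN spots in healthy muscle thus lacked the unnamed features, but so did most spots of these sections. The overlap in the fresh section was above the product for both unnamed features, on few UMIs. By depth, 2.498 fresh spots were expected for JCHAIN with ENSOCUG00000027394 and 0.841 with ENSOCUG00000025374, against 3 observed for each. The fresh unnamed pair was also above the depth reference. At 2 weeks, depth gave 17.97 and 6.99 spots for the same JCHAIN pairs and 112.8 for the unnamed pair. The observed 9, 4 and 25 were below these, so at 2 weeks the direction depended on the reference. For JCHAIN with ENSOCUG00000027394 in the stored healthy section, the product gave 0.0348 spots, so the absence of overlap there says little.

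The share of 16-week spots with JCHAIN followed the count of ENSOCUG00000027394. JCHAIN was found in 1.12% of the 981 spots with 0 UMIs of ENSOCUG00000027394, 0.906% of the 331 spots with 1 UMI, 2.60% of the 231 spots with 2 to 4, 11.4% of the 105 spots with 5 to 19, 35.2% of the 54 spots with 20 to 99 and 91.7% (73.0% to 98.97%) of the 24 spots with 100 or more. MZB1 was found in 0.306% of spots with 0 UMIs of ENSOCUG00000027394 and in 50% (29.1% to 70.9%) of the spots with 100 or more. A single UMI of ENSOCUG00000027394 was therefore not accompanied by detectably more JCHAIN than its absence, and from 5 UMIs upward the interval lay above that of the lowest band. Median depth was 1987 UMIs in the lowest band and 2405 in the highest, while mitochondrial genes took 36.2% and 16.96%. The part of depth and RNA composition in this difference was not tested.

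Over all spots of the 16-week section, Pearson's r on log2(1 + UMIs per 10000) was 0.67 between the unnamed features, 0.54 between JCHAIN and ENSOCUG00000025374, 0.43 between JCHAIN and ENSOCUG00000027394 and 0.35 between JCHAIN and MZB1 (n = 1726 spots of 1 library, which share its depth differences). Among 4715 features, the other 3 of the 4 ranked as the 3 most similar to JCHAIN, to MZB1 and to ENSOCUG00000025374. The 4 features were picked with their joint detection known, so these ranks describe them and are no test. MZB1 was not among the 5 most similar to ENSOCUG00000027394, with r = 0.27. SFRP2, a secreted Wnt modulator of fibroblasts, had r = 0.36 with ENSOCUG00000027394, and COL1A2, a chain of type I collagen, had 0.35. ENSOCUG00000009058, which carries only an identifier, ranked between SFRP2 and COL1A2 with 0.353. ENSOCUG00000021096, also without a symbol, ranked 4 for both JCHAIN (r = 0.198) and MZB1 (0.182). TXNDC5, a protein disulfide isomerase of the endoplasmic reticulum, ranked 5 for MZB1 with 0.179. ENSOCUG00000000999 ranked 5 for JCHAIN with 0.164. For ENSOCUG00000025374, SFRP2 ranked 4 with 0.317 and ENSOCUG00000007039 ranked 5 with 0.310. At 2 weeks, r was 0.57 between the unnamed features, 0.48 between JCHAIN and ENSOCUG00000025374 and 0.44 between JCHAIN and ENSOCUG00000027394 (n = 854), and in the fresh section the unnamed pair had 0.46 (n = 1950). The most similar feature of each unnamed one was therefore the other, in all 3 sections where both reached 20 UMIs.

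The unnamed features did not keep 1 ratio. There were 31.5 UMIs of ENSOCUG00000025374 per 100 of ENSOCUG00000027394 in the fresh section (24.1 to 40.7), 25.1 at 2 weeks (21.4 to 29.3) and 11.7 at 16 weeks (10.99 to 12.4). The 16-week ratio lay below both other intervals, which overlapped each other, and the stored healthy section had too few UMIs. Within the 16-week section, the ratio ranged over the 24 spots with 100 or more UMIs from 2.19 (4 against 183 UMIs, 0.589 to 5.69) to 19.2 (24 against 125, 11.9 to 29.9), with a median of 12.3. The intervals of these 2 spots did not overlap, but the spots were picked as the extremes of the 24, so this is no test. In bands of ENSOCUG00000027394 at 16 weeks, the ratio was 6.04 (3.64 to 9.48) in spots with 1 UMI and 5.56 (3.76 to 7.93) in spots with 2 to 4. It was 10.4 (8.35 to 12.7) with 5 to 19, 10.7 (9.43 to 12.2) with 20 to 99 and 12.6 (11.7 to 13.6) with 100 or more. These bands are set by the denominator of the ratio, and they leave out the spots with 0, which held 32 UMIs of ENSOCUG00000025374.

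**Figure D3:**
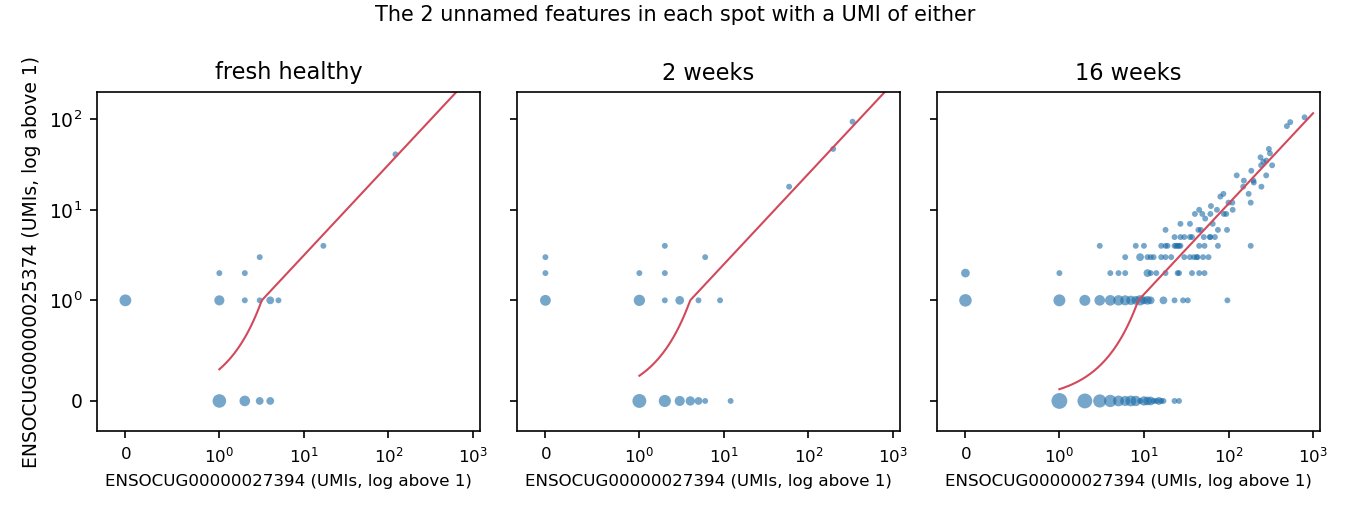
UMIs of ENSOCUG00000025374 against ENSOCUG00000027394 per spot in the fresh healthy, 2-week and 16-week sections, on axes that are linear up to 1 and logarithmic above, with larger dots for more spots at the same counts. The red curve is the ratio of the section's totals (31.5, 25.1 and 11.7 per 100), which bends where the axis turns linear. The 16-week spots scatter around their line over a wide range, and the other sections have 1 to 3 high spots.

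JCHAIN per 100 UMIs of ENSOCUG00000027394 was 3.47 (2.29 to 5.06) at 2 weeks and 1.22 (1.02 to 1.45) at 16 weeks. Within the 16-week section it was 1.06 (0.698 to 1.55) in spots with 20 to 99 UMIs of ENSOCUG00000027394 and 1.10 (0.854 to 1.40) in spots with 100 or more. JCHAIN and ENSOCUG00000027394 thus differed in proportion between sections, and not detectably between the 2 upper bands of the 16-week section.

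To see where in the tissue the features lay, the spots of each section were split into quartiles by their share of UMIs in a list of genes. In connective tissue (8 list genes with a feature, such as COL3A1, a fibrillar collagen, and DCN, the proteoglycan decorin), the level of ENSOCUG00000027394 at 16 weeks was 3.16 per 10000 in the lowest quartile, then 6.55, 13.8 and 115 (112 to 118) in the highest. The highest quartile held 74.2% of its UMIs. JCHAIN went from 0.0563 (0.0270 to 0.103) in the lowest to 1.23 (0.980 to 1.52) in the highest quartile, MZB1 from 0.00563 (1 UMI) to 0.263 (18 UMIs) and ENSOCUG00000025374 from 0.315 to 14.3. All 4 features were thus highest in the spots richest in connective tissue transcripts. Median depth fell from 4116 to 1359 UMIs and the mitochondrial share from 41.7% to 18.1% over the same quartiles, and their part in the result was not tested.

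By the muscle fiber list (7 genes, such as MYH7, the slow myosin heavy chain), the order was the opposite, with 92.2, 31.1, 7.07 and 2.09 UMIs of ENSOCUG00000027394 per 10000 from the lowest to the highest quartile, and 0 of the 28 MZB1 UMIs in the highest. By the adipose list (4 genes, mainly LPL, lipoprotein lipase), the levels were 9.11, 7.97, 35.1 and 55.5. Even in the quartile richest in muscle transcripts, ENSOCUG00000027394 was above its whole stored healthy section (2.09 with an interval of 1.88 to 2.32, against 0.0152), and 37.5% of these spots held it. Whether this was RNA of the spot itself or RNA spread from neighboring spots was not tested.

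**Figure D4:**
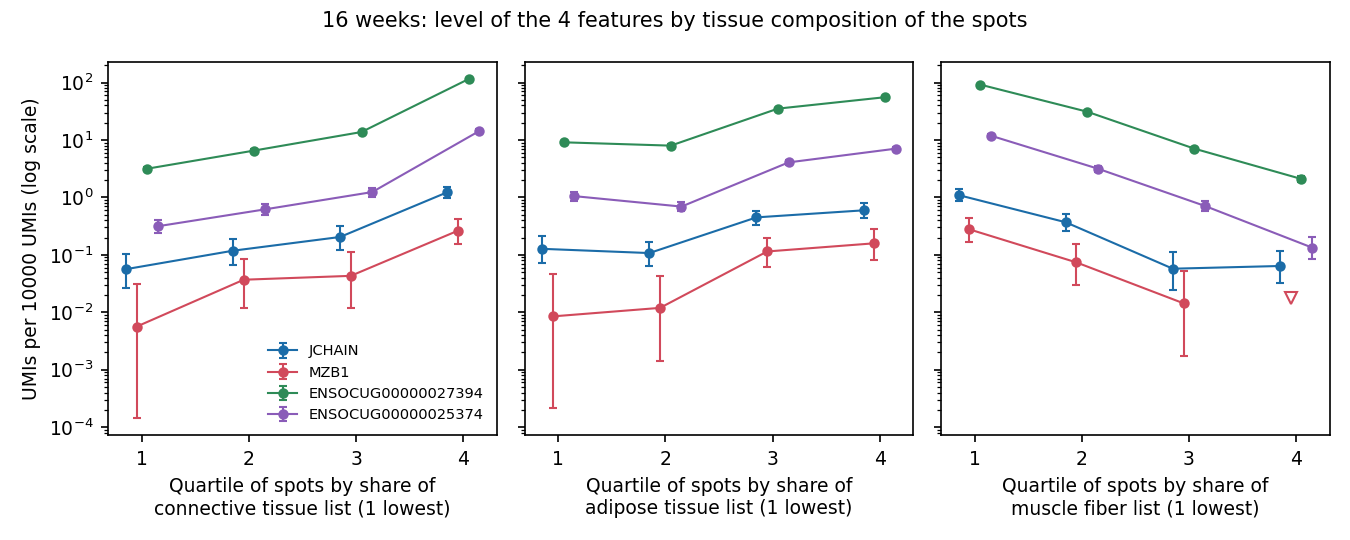
Level of the 4 features at 16 weeks in quartiles of spots ordered by their share of UMIs in the connective tissue, adipose tissue and muscle fiber lists, on a log axis. Points are sums over a quartile and bars exact Poisson 95% intervals, and the open triangle is the limit of 3 counts for MZB1 at 0 UMIs. Among the connective quartiles, all 4 features are highest in the top one, where ENSOCUG00000027394 is at 115 per 10000.

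At 2 weeks, the level of ENSOCUG00000027394 by connective tissue quartile was 0.138, 0.334, 3.75 and 3.64 per 10000. Its 3 highest spots alone carried 587 of the 806 UMIs, so these levels mostly say in which quartiles 3 spots fell. The share of spots thinned to 1000 UMIs that held it depends less on them, and was 1.35%, 3.35%, 7.50% and 9.67%. By this measure the 2-week section had the same connective tissue order. By muscle fiber quartile at 2 weeks, these shares were 5.27%, 4.36%, 4.96% and 7.18%, without the falling order seen at 16 weeks. The fresh section did not show the connective tissue order, with ENSOCUG00000027394 at 0.115, 0.205, 0.819 and 0.198 per 10000 in the connective tissue quartiles. Its thinned shares there were 1.51%, 2.31%, 1.88% and 2.38%. The 16 fresh JCHAIN UMIs lay 1, 8, 6 and 1 in these quartiles. The stored healthy section had too few UMIs for the split, with 19 of ENSOCUG00000027394 and 5 of JCHAIN.

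More than 50% of the UMIs of both unnamed features at 16 weeks came from 1 group of places. Single spots could not be placed, since barcodes and positions were read from lists without a shared key, but groups of spots could be, because a barcode marks the same place in each capture area. A group of 124 places lay under tissue in the fresh healthy and 16-week sections and in neither of the other sections, and 113 of them formed 1 connected patch on the array. It was singled out after its values were seen. At 16 weeks, these 124 spots (7.18% of the section) held 6203 of the 10589 UMIs of ENSOCUG00000027394 (58.6%), 772 of the 1235 UMIs of ENSOCUG00000025374 (62.5%), 66 of the 129 of JCHAIN (51.2%) and 14 of the 28 of MZB1 (50%). Without them, the log2 ratio from 2 to 16 weeks was 2.32 for ENSOCUG00000027394, 1.07 for ENSOCUG00000025374, 1.03 (0.38 to 1.74) for JCHAIN and 1.27 (-0.19 to 3.19) for MZB1, compared with 3.50, 2.39, 1.97 and 2.16 with them. They also held 13 of the 24 spots with 100 or more UMIs of ENSOCUG00000027394. The remaining 1602 spots had levels of 9.87 for ENSOCUG00000027394, 1.04 for ENSOCUG00000025374, 0.142 for JCHAIN and 0.0315 for MZB1 per 10000. The first 3 were still above the 2-week section as a whole beyond counting error, and the interval of MZB1 (0.0172 to 0.0528) overlapped that at 2 weeks.

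The group was rich in connective tissue, with 223 list UMIs per 10000 against 75.3 elsewhere, but this list did not distinguish it from other connective tissue of the section. In the highest connective quartile, the 90 spots inside the group had 313 list UMIs per 10000 and the 342 spots outside had 310. ENSOCUG00000027394 was at 302 per 10000 (294 to 310) inside and 43.5 (41.7 to 45.4) outside. JCHAIN was at 3.23 (2.47 to 4.15) inside and 0.465 (0.295 to 0.698) outside, MZB1 at 0.688 (0.366 to 1.18) and 0.101 (0.0328 to 0.236), and ENSOCUG00000025374 at 38.8 (36.0 to 41.7) and 4.99 (4.39 to 5.66). In this quartile, all 4 features were higher inside the group, and all 90 spots inside held ENSOCUG00000027394. Of all 124 spots of the group, 112 held it. The group was picked with these values known, so the difference describes it and is no test.

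**Figure D5:**
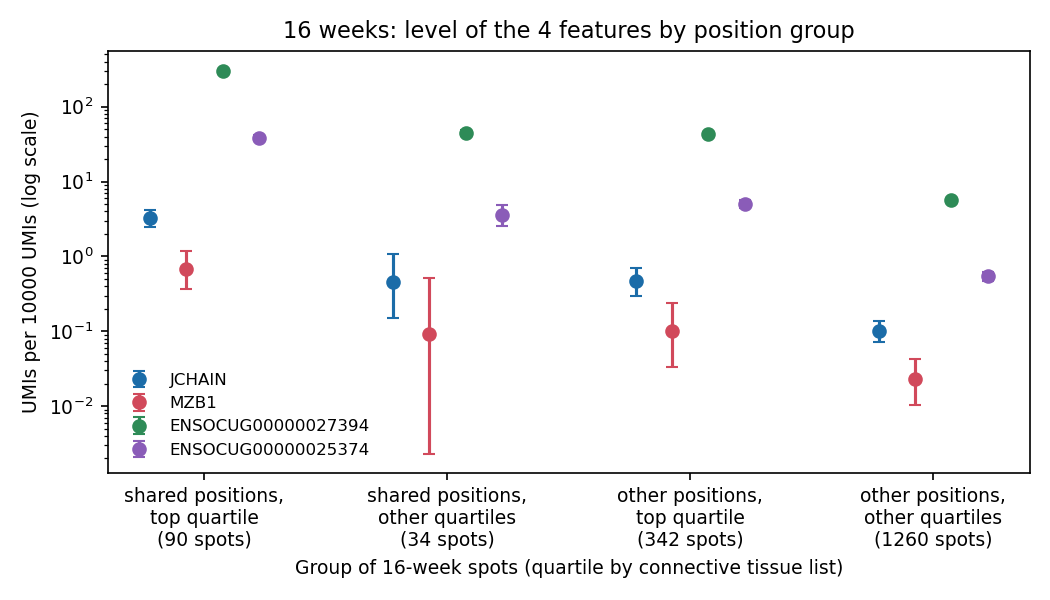
Level of the 4 features at 16 weeks in 4 groups of spots, on a log axis with exact Poisson 95% intervals. Shared positions are the 124 under tissue in the fresh healthy and 16-week sections only, and the top quartile is that by the connective tissue list. ENSOCUG00000027394 is at 302 per 10000 in the shared positions of the top quartile and at 43.5 in the other spots of that quartile.

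The same 124 places in the fresh section held 2 UMIs of ENSOCUG00000027394, 2 of ENSOCUG00000025374 and none of JCHAIN or MZB1. Of the 71 16-week spots with at least 20 UMIs of ENSOCUG00000027394 whose barcode was also under tissue in the fresh section, 5 held it there. These 5 had 8 UMIs in all and at most 4 each. Over all 1377 barcodes shared by these 2 sections, 3.20% held it in the fresh section. JCHAIN was never found at the same barcode in 2 sections, nor was MZB1. The product of shares gave at most 0.389 such barcodes for JCHAIN and 0.0266 for MZB1 in any pair, so their absence says little. At 2 weeks, 762 of the 806 UMIs of ENSOCUG00000027394 lay in the 512 places under tissue in all 4 sections, which at 16 weeks held 1161 of the 10589.

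Other genes of the plasma cell program were sparse. Of 14 genes listed, 8 had a feature of that name, and XBP1, IRF4, CD38, FKBP11, DERL3 and PIM2 had none. Genes were compared between the 194 16-week spots with at least 2 of the 4 features and the other 1532 spots. Of the 194 spots, 180 held both unnamed features. JCHAIN was found in only 73 spots of the section and MZB1 in 21, so most of the 194 held neither. Median depths of the 194 and the other spots were 1963 and 2098.5 UMIs, and mitochondrial shares were 25.6% and 35.7%. Of the 4712 features with at least 20 UMIs, 15.7% were at least 2-fold higher and 3.46% at least 2-fold lower in the 194 spots, and the median log2 ratio was 0.37. TXNDC5 was higher, with 26 UMIs in the 194 spots and 45 in the others, or 4.89-fold (2.90 to 8.10), and was 1 of 2 list genes with enough UMIs. SEC11C, a signal peptidase subunit, had a ratio of 1.19 (0.921 to 1.52). TNFRSF17, the plasma cell receptor BCMA, had its only 2 UMIs in the 194 spots. SDC1 had 1 there and 2 elsewhere, PRDM1 had 0 and 2, CD27 had 0 and 1, and POU2AF1 and SLAMF7 were at 0 in the section. Of the 2 list genes with enough UMIs, only TXNDC5 was thus at least 2-fold higher at 16 weeks, and many secreting cells express it. The 194 spots were picked by the 4 features and also held more connective tissue and macrophage transcripts, so these genes do not set a cell type. At 2 weeks, TXNDC5 had 3 UMIs in the 32 spots with at least 2 of the features and 52 elsewhere. Its ratio there was 1.43 (0.285 to 4.40), and that of SEC11C was 1.31 (0.768 to 2.11). Neither was at least 2-fold higher, where 15.3% of all features were.

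The machinery of protein export, which is large in plasma cells but present in all secreting cells, was represented by 13 genes. Of these, 3 were at least 2-fold higher in the 194 spots and none at least 2-fold lower, with a median log2 ratio of 0.81. Over all features, 15.7% were at least 2-fold higher. MANF, a stress-induced protein of the endoplasmic reticulum, had a ratio of 2.36 (1.44 to 3.75), SDF2L1, a cofactor of protein folding, 2.31 (1.52 to 3.42), and SEC61A1, the channel of the translocon, 2.07 (1.65 to 2.58). HSP90B1, the most counted, had 1.75 (1.55 to 1.96), PDIA3 1.92 (1.65 to 2.23), and SEC61G 0.993 (0.866 to 1.13). Ratios were also below 1 for SELENOK (0.888, 0.725 to 1.08), DNAJB9 (0.857, 0.478 to 1.44), SPCS1 (0.822, 0.468 to 1.35) and HERPUD1 (0.445, 0.0107 to 2.80). Each of these intervals included 1. Mitochondrial genes moved with the groups, and without them 2 of the 13 genes were at least 2-fold higher, where 9.15% of all features were. In the 54 spots with at least 3 of the 4 features, 7 of the 13 genes were at least 2-fold higher than in all other spots, where 34% of all features were, and 3 of the 13 without mitochondrial UMIs, where 22% were.

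Markers of other cell types were counted in the same spots. Of 7 macrophage genes with enough UMIs, 5 were at least 2-fold higher in the 194 spots (median log2 ratio 1.39, where 15.7% of all features were higher), among them CSF1R, the receptor for a macrophage growth factor, with 2.62 (2.17 to 3.15), C1QA, of complement C1q, with 2.94 (2.36 to 3.63), and CD68, a lysosomal protein, with 3.39 (2.39 to 4.73). C1QB did not follow, at 0.954 (0.531 to 1.60). Of 7 connective tissue genes, 5 were at least 2-fold higher (median 1.33), such as COL3A1 with 2.80 (2.68 to 2.92). None of the 7 muscle fiber genes was at least 2-fold higher or lower (median -0.31). Of 3 endothelial genes, VWF, the von Willebrand factor of vessels, was higher with 2.16 (1.88 to 2.47). Without mitochondrial UMIs, 4 macrophage, 4 connective tissue and 0 endothelial genes were at least 2-fold higher and 1 muscle fiber gene was at least 2-fold lower, where 9.15% of all features were higher and 5.17% lower. The 194 spots with at least 2 of the 4 features thus held more macrophage and connective tissue transcripts than the others. Of these spots, 180 held both unnamed features and 13 held all 4, so the comparison mainly describes spots with the unnamed features. The part of this tissue difference in the counts of TXNDC5 and the export genes was not tested.

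The B cell markers counted here were close to 0. These 6 genes had 2 UMIs in the 194 spots and 1 in the other 1532, made up of CD79B and BANK1, and MS4A1, PAX5, BLK and CR2 were at 0. Over whole sections, these 6 genes had 1 UMI in fresh healthy, 1 in stored healthy, 1 at 2 weeks and 3 at 16 weeks. The 4 T cell genes with a feature had 0 UMIs in the 194 spots and 2 elsewhere. For plasmacytoid dendritic cells, 2 of 9 genes had a feature. TCF4 had 5 UMIs in the 194 spots and 70 elsewhere, a ratio of 0.605 (0.190 to 1.48), and BCL11A was at 0. The mast cell list had 6 UMIs in the 194 spots and 32 elsewhere. The listed B and T cell markers were thus too few for any comparison.

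Among genes for plasma cell survival and homing, TNFSF13, which encodes the ligand APRIL, had 11 UMIs in the 194 spots and 34 elsewhere, a ratio of 2.74 (1.25 to 5.53), and VCAM1, an adhesion molecule, had 1.09 (0.478 to 2.19). CXCR4 had 1 UMI and ITGA4 2, all outside the 194 spots, and CCR10, CXCL13 and PIGR were at 0. In the 54 spots with at least 3 of the 4 features, this list had 4 UMIs. There, 0 of its 2 genes with enough UMIs were at least 2-fold higher, where 34% of all features were. At 2 weeks, none of the 12 export genes with enough UMIs was at least 2-fold higher or lower in the 32 spots with at least 2 of the 4 features, where 15.3% of all features were higher and 10% lower. Of 7 macrophage genes 3 were at least 2-fold higher there and 1 at least 2-fold lower. In the fresh section there were 16 such spots, and 35.7% of all features passed the 2-fold level upward, so its counts were too few for a comparison of lists.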

How the data were processed

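The deposited files hold counts of UMIs per feature and spot for spots under tissue. Per the labels and methods, the authors aligned images by hand in Loupe Browser and counted with Space Ranger 1.2.0 on OryCun2.0 with Ensembl annotation, without normalization. Duplicate reads were merged, so counts are molecules. All spots and features were used, and 37 genes were taken as mitochondrial. Reads that several near-identical genes share could be lost or split in such counting, which was not examined for the unnamed features.

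The 4 features and all gene lists were chosen with earlier results of these data known. Levels are UMIs per 10000 UMIs of the section. Log2 ratios and 2-fold calls added 0.5 UMI, and ratios against 0 are bounds from 3 counts. Features needed 20 UMIs in a comparison. List genes named were those with most UMIs in spots with at least 2 of the 4 features, up to 4 per list, and the 5 features most correlated with each of the 4 over spots. MANF, SDF2L1, SEC61A1, SELENOK, DNAJB9, SPCS1, HERPUD1, C1QB and list genes with at most 2 UMIs beyond these were named after their values were seen. 1 B cell marker is not reported here. Product-of-shares references and the shared position group were also added then. In all combinations of sections, barcodes counted equaled positions under tissue. An annotation of mOryCun1.1 held symbols for JCHAIN and MZB1, matched neither identifier, and gave no coordinates here. Plots used matplotlib 3.10.9 and calculations used scipy 1.17.1, numpy 2.4.6 and pandas 2.3.3 under Python 3.11.15. The calculations were tested on simulated Poisson counts without concentration in few spots, so that test does not show how the intervals behave for features with such concentration.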

Additional observations from a re-analysis of the deposited data

How the results depend on the processing

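No paired analysis was possible because each condition had 1 section and no result came from a test. Precision is limited by counts under 20 UMIs. These were JCHAIN in healthy muscle, MZB1 outside the 16-week section and both unnamed features in the stored healthy section. Intervals leave out differences between animals.

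Without mitochondrial UMIs, the 16-week levels per 10000 were 0.416 for JCHAIN, 0.0903 for MZB1, 34.1 for ENSOCUG00000027394 and 3.98 for ENSOCUG00000025374, since the denominator shrinks. Without the 124 shared positions, the 16-week log2 ratio of ENSOCUG00000027394 over stored healthy was 9.31 (10.49 with them), and those over fresh healthy were 2.60 for JCHAIN, 4.78 for ENSOCUG00000027394 and 3.20 for ENSOCUG00000025374 (3.54, 5.96 and 4.52 with them). Without the spot with most UMIs, the 16-week over fresh log2 ratio was 6.80 for ENSOCUG00000027394 and 5.44 for ENSOCUG00000025374 (5.96 and 4.52 with it). The stored over fresh log2 ratio of ENSOCUG00000027394 was then -3.74 (-4.53 with it). Thinning to 500 UMIs gave shares at 16 weeks of 1.59% for JCHAIN and 22.5% for ENSOCUG00000027394, and asking for 2 UMIs gave 0.832% and 16.0%. The number of spots with both over the number expected by depth was 4.25 for JCHAIN with MZB1, 0.519 with ENSOCUG00000027394 and 0.669 with ENSOCUG00000025374. It was 14.6, 1.97 and 5.66 with the product of shares and 677, 3.35 and 7.60 with at least 2 UMIs of each, the 677 resting on 3 spots, so the side of 1 depended on the reference. The log2 ratio of ENSOCUG00000027394 at 16 weeks between the highest and lowest quartile was 5.18 for connective tissue, 2.61 for adipose and -5.46 for muscle. It was 4.43, 1.95 and -5.14 without mitochondrial UMIs and 3.45, 3.78 and -4.31 without the shared positions, and the adipose value was 2.80 in spots with at least 500 UMIs. In spots with 3 or more of the features, 7 of 13 export genes were at least 2-fold higher (3 without mitochondrial UMIs). By muscle quartile at 2 weeks, ENSOCUG00000027394 was at 0.483 per 10000 in the lowest and 1.41 in the highest quartile. For ENSOCUG00000025374 these levels were 0.0676 and 0.303. The log2 ratio of highest over lowest changed sign without mitochondrial UMIs, to -1.09 for ENSOCUG00000027394 and -0.91 for ENSOCUG00000025374. Such 2-week levels depend on where a few high spots fell. The causes were not tested. Of the other alternatives for the main results, 47 stayed within the interval or within 1.5 times.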
